A study of Mus musculus with 16 samples.

Results

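The 10 genes described here code for enzymes that make serine and glycine and that carry single carbon units on folate. They were followed in N25/2, an immortalized mouse line derived from the embryonic hypothalamus. They were chosen by name from the known pathway (Phgdh, Psat1, Psph, Shmt1, Mthfd1, Shmt2, Mthfd2, Mthfd2l, Mthfd1l and Aldh1l2). Earlier results of these data were known when they were chosen, so the counts below are not those of a set fixed in advance. All 10 were found, each on 1 row with a single gene symbol, among 19938 named genes. Cells were kept in medium lacking amino acids (deprived) or in medium containing them (control), and RNA was measured on 16 whole-transcript arrays. There were 4 deprived and 4 control arrays at 5 h, and 1 of each at 1, 2, 3 and 16 h. Both groups grew in DMEM with fetal bovine serum, penicillin-streptomycin and amphotericin, and the labels name no genetic change. All samples come from a single cell line. Separate cultures are not mentioned for the arrays of 1 group, and the p-values below therefore cover the spread among these arrays only, part of which may be technical.

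Serine is made in the cytosol from a glycolytic intermediate by Phgdh, Psat1 and Psph in turn. Serine hydroxymethyltransferases then split it into glycine and a carbon unit bound to tetrahydrofolate, in the cytosol through Shmt1 and in mitochondria through Shmt2. The carbon unit is oxidized by Mthfd2 or Mthfd2l and released as formate by Mthfd1l in mitochondria, while Mthfd1 carries out all of these folate steps in the cytosol. These pathways feed purine, thymidylate and methyl-group synthesis, and several of their genes are known targets of Atf4, a transcription factor that is translated more when amino acids run short.

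The deposited values are on the log2 scale, and array medians lay between 7.02 and 7.12. Levels of different genes depend on their probes and are not compared with each other here. Both arrays numbered 4 at 5 h stood apart from the rest. Control array 4 had the lowest value of its group for 8 of the 10 genes. For some genes the difference is therefore also given without both arrays numbered 4. The files hold no detection calls, and mean levels of neuronal markers at 5 h ran from 4.91 (Nefm) to 12.43 (Stmn2) in control cells. Markers of mesenchymal cells ran from 4.45 (Lum) to 12.38 (Col1a1) in the same cells. Array means of the 5 mesenchymal markers lay at 8.72 to 8.82 in deprived and 8.80 to 9.10 in control cells. None of the 33 measured markers of neurons, glia, endothelium and mesenchyme passed at 5 h in limma. In that fit 4 had an unadjusted p under 0.05, 2 neuronal and 2 mesenchymal, as had 2740 of all 19938 genes. With the replicate number as a block, 2 mesenchymal markers were called lower, 1 neuronal marker higher and 1 lower. Of all genes 8.22 percent were called higher there and 10 percent lower. Without both arrays numbered 4, 1 mesenchymal and 1 neuronal marker were called lower, as were 7.17 percent of all genes. The part of these markers in the 5 h results was not tested.

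The first question was which enzymes differed after 5 h without amino acids. Of the 10 genes 7 rose, none fell and 3 did not pass an adjusted p of 0.05 in limma. This is a linear model fitted to all 19938 genes with Benjamini-Hochberg adjustment over them. A rise or fall at 5 h means deprived above or below control at that time, not a change from an earlier time. Control values also moved between 1 h and 5 h, as given below. Over all genes 2.41 percent were called higher and 1.7 percent lower, 4.11 percent in either direction. All 3 serine synthesis enzymes and 4 of the 5 mitochondrial folate enzymes rose, while neither of the cytosolic folate enzymes passed. The median difference, deprived minus control, was 0.65 for the 10 genes and -0.01 for all genes on the log2 scale. Deprived and control arrays did not overlap for 9 of the 10 genes, 8 with deprived cells higher (5.15 percent of all genes) and 1 with deprived cells lower (5.38 percent of all genes).

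Phgdh, the entry enzyme of serine synthesis, had log2 values of 10.39, 10.34, 10.34 and 10.40 in deprived cells at 5 h, against 9.91, 9.71, 9.83 and 9.57 in control cells. The deprived arrays lay close together and all above the highest control. The difference was 0.61 (SE 0.09), a 1.53-fold rise with an adjusted p of 0.00433 in limma.

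Psat1, the aminotransferase of the second step, was at 12.60, 12.56, 12.58 and 12.44 in deprived cells, against 12.14, 11.94, 11.97 and 11.42 in control cells. Array 4 was the lowest in both groups, and the groups did not overlap. The gene rose by 0.68 (SE 0.14; 1.60-fold, adjusted p = 0.0264 in limma). This was the least stable of the 7 rises: it was kept in 11 of 17 alternative settings, and its adjusted p ran from 2.47e-06 to 0.0949. Without both arrays numbered 4 the difference was 0.56 (SE 0.07, adjusted p = 0.000478 in limma).

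Psph, the phosphatase that releases serine, showed the largest rise of the serine synthesis enzymes. Its values were 9.82, 9.74, 9.59 and 9.87 in deprived cells and 8.98, 8.80, 8.74 and 8.56 in control cells. The groups were well apart. The difference was 0.99 (SE 0.10), which is 1.98-fold, with an adjusted p of 0.000926 in limma.

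Among the mitochondrial enzymes, Mthfd2 rose most. This dehydrogenase and cyclohydrolase is known for its high level in embryonic and transformed cells. It had log2 values of 12.03, 11.94, 11.99 and 12.16 in deprived cells, against 10.88, 10.89, 10.79 and 10.17 in control cells. Control array 4 was far below the other controls, and deprived array 4 was the highest of its group. The rise was 1.35 (SE 0.15), or 2.54-fold, with an adjusted p of 0.00126 in limma, and it ranked as number 37 among the rises of all genes. Between same-numbered arrays the difference was 1.15, 1.05, 1.20 and 1.99. Without both arrays numbered 4 it was 1.13 (SE 0.07, adjusted p = 2.18e-06 in limma).

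Aldh1l2, the mitochondrial dehydrogenase that oxidizes formyltetrahydrofolate and yields NADPH, was at 11.76, 11.70, 11.71 and 11.57 in deprived cells. In control cells it was at 10.92, 10.72, 10.68 and 10.12. The groups were well separated, with array 4 the lowest in each. The gene rose by 1.08 (SE 0.15; 2.11-fold, adjusted p = 0.00433 in limma), and by 0.95 (SE 0.08) without both arrays numbered 4.

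Shmt2, which makes glycine in mitochondria, was at 12.46, 12.39, 12.42 and 12.39 in deprived cells and at 11.92, 11.67, 11.53 and 11.23 in control cells. The control arrays spread widely, with array 4 the lowest, while the deprived arrays lay close together. The rise was 0.83 (SE 0.13; 1.78-fold, adjusted p = 0.00713 in limma).

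Mthfd1l, the mitochondrial formyltetrahydrofolate synthetase, had the smallest rise that passed. Values were 10.45, 10.39, 10.40 and 10.43 in deprived cells, against 9.95, 9.95, 9.81 and 9.78 in control cells. Both groups were tight and did not overlap, and the difference was 0.54 (SE 0.07; 1.46-fold, adjusted p = 0.00306 in limma).

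The 3 genes that did not pass were Mthfd2l, Shmt1 and Mthfd1. Mthfd2l, the relative of Mthfd2 with the same reactions in mitochondria, had values of 9.03, 8.73, 8.83 and 9.37 in deprived cells and 9.00, 9.02, 8.95 and 9.19 in control cells. The groups overlapped, with array 4 highest in both. The difference was -0.05 (SE 0.13, adjusted p = 1.0 in limma), with a 95% interval from -0.35 to 0.25, and with single arrays left out it ran from -0.18 to 0.04.

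Shmt1, the cytosolic counterpart of Shmt2, was at 8.49, 8.36, 8.23 and 8.66 in deprived cells, against 8.22, 8.10, 8.17 and 8.0 in control cells. The lowest deprived array was only just above the highest control array. The difference was 0.31 (SE 0.10, adjusted p = 0.165 in limma). With the replicate number entered as a block it passed (SE 0.09, adjusted p = 0.0287 in limma). Without both arrays numbered 4 the difference was 0.20 (SE 0.08, adjusted p = 0.15 in limma). The pairing by number, on which the block relies, rests mainly on the arrays numbered 4.

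Mthfd1, the cytosolic enzyme that joins the dehydrogenase, cyclohydrolase and synthetase steps in one protein, had lower values in deprived cells. They were 9.24, 9.18, 9.25 and 9.23 in deprived cells, against 9.69, 9.46, 9.35 and 9.46 in control cells. All deprived arrays lay below all controls, and the difference was -0.26 (SE 0.09, adjusted p = 0.156 in limma). With that block it passed as lower (SE 0.07, adjusted p = 0.0207 in limma). The block gave 8 of the 10 genes as higher and 1 as lower, where 8.22 percent of all genes were called higher and 10 percent lower (18.2 percent in all). Without both arrays numbered 4, 7 were called higher and none lower, against 6.34 percent of all genes higher and 7.17 percent lower (13.5 percent in all).

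**Figure D1:**
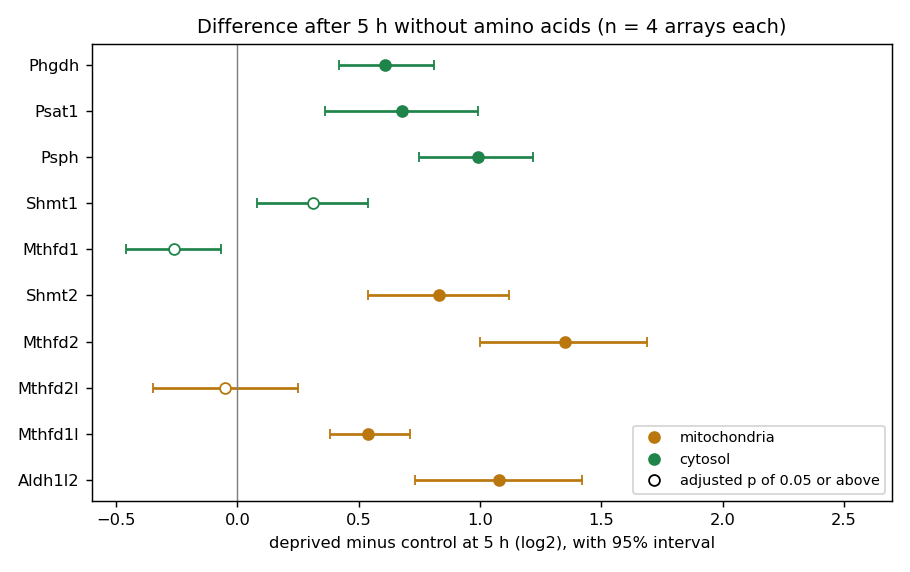
Difference between deprived and control cells at 5 h for each enzyme gene on the log2 scale (horizontal axis), with the 95% interval of limma's fit, n = 4 arrays per group. Filled points passed an adjusted p of 0.05; Mthfd2 is the farthest to the right at 1.35, and the open points are Shmt1, Mthfd1 and Mthfd2l.

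The next question was whether mitochondrial enzymes differed from cytosolic ones. The median difference at 5 h was 0.83 for the 5 mitochondrial genes and 0.61 for the 5 cytosolic genes. Of the cytosolic genes, the 3 of serine synthesis had a median of 0.68, while Shmt1 and Mthfd1 differed by 0.31 and -0.26. The compartments were compared within pairs of related enzymes, as the change of one gene minus that of its relative, with an exact two-sided permutation test over the 4 deprived and 4 control arrays. The smallest p this design allows is 0.0286, and p-values were adjusted over the 6 pairs. The pairs share arrays, and Mthfd1 enters 3 of them and Mthfd2 and Mthfd2l 2 each. The pair of Mthfd2 and Mthfd2l lies within mitochondria and does not compare the compartments.

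In 5 of 6 pairs the changes differed, each with the smallest p the test can give (exact permutation p = 0.0286, adjusted p = 0.0343). Mthfd2 exceeded cytosolic Mthfd1 by 1.61 and its mitochondrial relative Mthfd2l by 1.40. This gap within mitochondria was larger than that of every pair across compartments except Mthfd2 and Mthfd1. Mthfd1l exceeded Mthfd1 by 0.81, and Shmt2 exceeded Shmt1 by 0.52. Aldh1l2 exceeded by 0.90 its cytosolic relative Aldh1l1, which itself differed by 0.18 (SE 0.08, adjusted p = 0.385 in limma). Aldh1l1 had low means, 6.66 in deprived and 6.48 in control cells, which lay below the array medians. Whether a change of Aldh1l1 could be seen at this level was not tested, so this pair may mostly restate the rise of Aldh1l2. Mthfd2l exceeded Mthfd1 by 0.21, which did not pass (exact permutation p = 0.257).

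**Figure D2:**
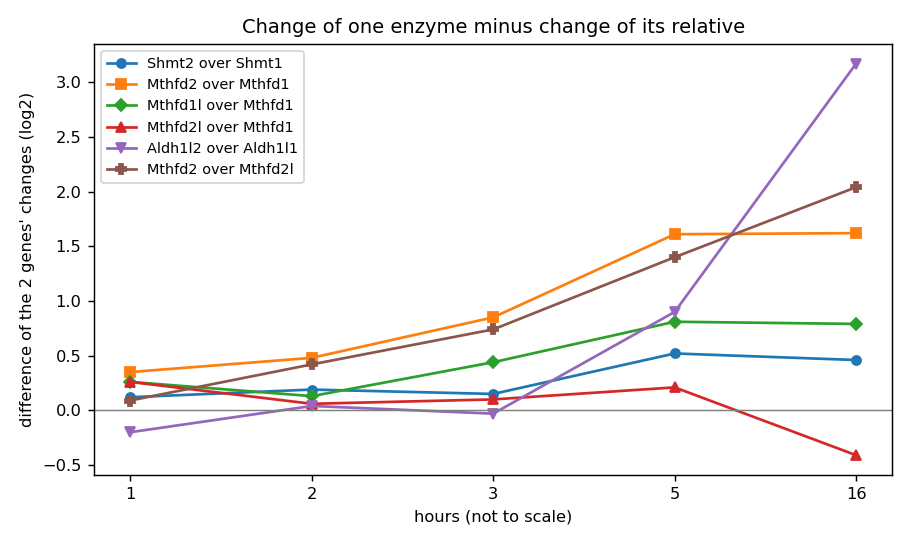
Change of one gene minus the change of its relative (vertical axis, log2) at each time, from 4 arrays per group at 5 h and 1 at the other times. Mthfd2 over Mthfd1 reached 1.61 at 5 h and 1.62 at 16 h, Aldh1l2 over Aldh1l1 reached 3.17 at 16 h, and Mthfd2l over Mthfd1 stayed between -0.41 and 0.26.

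Promoters are shown for the pairs Mthfd2 and Mthfd2l, and Shmt2 and Shmt1, because the members of each pair changed unequally. The sequences are from RefSeq (GRCm38.p6) and run 5′ to 3′ on the gene's strand, from 250 bases before to 50 after the transcript start that the promoter table uses. For Shmt1 and Shmt2 this is the outer end of the gene's annotated span. The windows of Mthfd2 and Mthfd2l lie inside the annotated span of their genes, which begins further upstream. The windows are those of Mthfd2 (chr6:83317555-83317854, minus strand), Mthfd2l (chr5:90930946-90931245, plus strand), Shmt2 (chr10:127522395-127522694, minus strand) and Shmt1 (chr11:60811216-60811515, minus strand). Capitals mark CCAAT on either strand.
Mthfd2: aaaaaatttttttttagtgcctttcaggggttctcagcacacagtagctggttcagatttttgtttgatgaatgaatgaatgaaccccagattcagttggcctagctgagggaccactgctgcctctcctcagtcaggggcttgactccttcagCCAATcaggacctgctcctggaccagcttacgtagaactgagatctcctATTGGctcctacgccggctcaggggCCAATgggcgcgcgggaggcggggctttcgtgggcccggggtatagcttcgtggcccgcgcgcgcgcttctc
Mthfd2l: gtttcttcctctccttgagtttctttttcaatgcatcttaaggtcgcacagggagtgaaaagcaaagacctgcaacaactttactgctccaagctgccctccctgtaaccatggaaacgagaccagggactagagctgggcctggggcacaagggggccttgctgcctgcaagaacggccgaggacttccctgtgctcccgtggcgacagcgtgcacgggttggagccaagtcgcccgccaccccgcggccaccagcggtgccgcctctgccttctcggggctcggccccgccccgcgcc
Shmt2: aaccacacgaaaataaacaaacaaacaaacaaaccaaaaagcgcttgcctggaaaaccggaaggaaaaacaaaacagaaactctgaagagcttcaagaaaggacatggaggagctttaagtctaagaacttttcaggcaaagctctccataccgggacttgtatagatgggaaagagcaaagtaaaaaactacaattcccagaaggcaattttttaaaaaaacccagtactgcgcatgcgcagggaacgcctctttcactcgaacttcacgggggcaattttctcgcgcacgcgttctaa
Shmt1: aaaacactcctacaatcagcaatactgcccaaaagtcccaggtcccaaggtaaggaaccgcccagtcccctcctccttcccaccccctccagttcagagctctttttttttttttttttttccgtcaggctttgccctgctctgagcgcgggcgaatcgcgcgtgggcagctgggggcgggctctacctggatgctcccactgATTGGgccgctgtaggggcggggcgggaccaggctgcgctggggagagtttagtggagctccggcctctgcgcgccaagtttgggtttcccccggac

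Promoter sequences matched 9 of the 10 genes, with 10 windows of 300 bases in all, since Psat1 had 2. None of the windows held TGATGNAA, the core letters of the C/EBP-ATF response element, or CACGTG, the E-box, on either strand. Of 32851 promoter windows of the same length, 3.97 percent held TGATGNAA, and CACGTG was in 7.15 percent. The motif CCAAT, added after the sequences were seen, was found in 6 windows of 6 genes, Phgdh, Psat1, Psph, Shmt1, Mthfd1 and Mthfd2, against 37.4 percent of all windows. Mthfd2 held it at 3 places and Mthfd2l and Shmt2 at none. These matches describe letters in this window only.

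Over time the differences grew from small values. At 1 h the 10 genes differed by -0.20 to 0.17, with a median of -0.05. The median was then 0.08, 0.20, 0.65 and 0.91 at 2, 3, 5 and 16 h. The medians of all genes stayed between -0.04 and 0.02 at these times. The single arrays at 1, 2, 3 and 16 h give no replicate check, and the differences there carry no test.

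Psph and Mthfd2 had the largest differences of the 10 genes at 2 and 3 h. The difference of Psph was 0.08, 0.54, 0.51, 0.99 and 1.31 over the 5 times, and that of Mthfd2 was 0.17, 0.32, 0.53, 1.35 and 1.60. Both were above 0 at every time.

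Aldh1l2 had a small difference up to 3 h and the largest of the 10 genes at 16 h. It had 11.04 in deprived and 11.19 in control cells at 1 h, 11.35 and 11.23 at 2 h, 11.47 and 11.21 at 3 h, and 12.30 and 9.52 at 16 h. Its difference was thus -0.14, 0.12, 0.26 and 1.08 up to 5 h, and 2.77 (6.84-fold) on the last arrays, number 10 among the rises of all genes there. Shmt2 followed a like course with -0.05, 0.05, 0.27, 0.83 and 1.5. Smaller differences at 16 h were found for 3 more of the genes that rose at 5 h. Phgdh was at -0.05, 0.11, 0.14, 0.61 and 0.75, Psat1 at -0.20, 0.18, 0.31, 0.68 and 0.75, and Mthfd1l at 0.08, -0.04, 0.12, 0.54 and 0.77. These last 3 ended close together at 16 h.

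The genes that did not pass at 5 h took separate courses. Shmt1 was lower in deprived cells at 1 and 2 h (-0.17 and -0.14), and higher by 0.12 at 3 h and by 1.04 at 16 h. Mthfd1 differed by -0.18, -0.16, -0.31 and -0.26 at 1, 2, 3 and 5 h and by -0.02 at 16 h. Mthfd2l differed by 0.08, -0.10, -0.21, -0.05 and -0.43 over the 5 times, and was thus never clearly higher in deprived cells.

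At 16 h 5 of the 10 genes were higher by at least 1 on the log2 scale (Aldh1l2, Mthfd2, Shmt2, Psph and Shmt1) and none was lower by as much, where 1.96 percent of all genes were higher and 2.97 percent lower by at least 1. At 1, 2 and 3 h none of the 10 reached that size, against 0.0201, 0.0602 and 0.0903 percent of all genes that were higher by it and 0.105, 0.12 and 0.0451 percent that were lower. At 16 h 3 of 5 mesenchymal markers were lower in deprived cells by at least 1, with a median difference of -1.57 over the 5, as were 1 of 11 neuronal and 1 of 5 astrocyte markers. In bulk RNA, fewer cells of a type and less RNA per cell cannot be told apart. The part of these markers in the 16 h values was not tested.

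**Figure D3:**
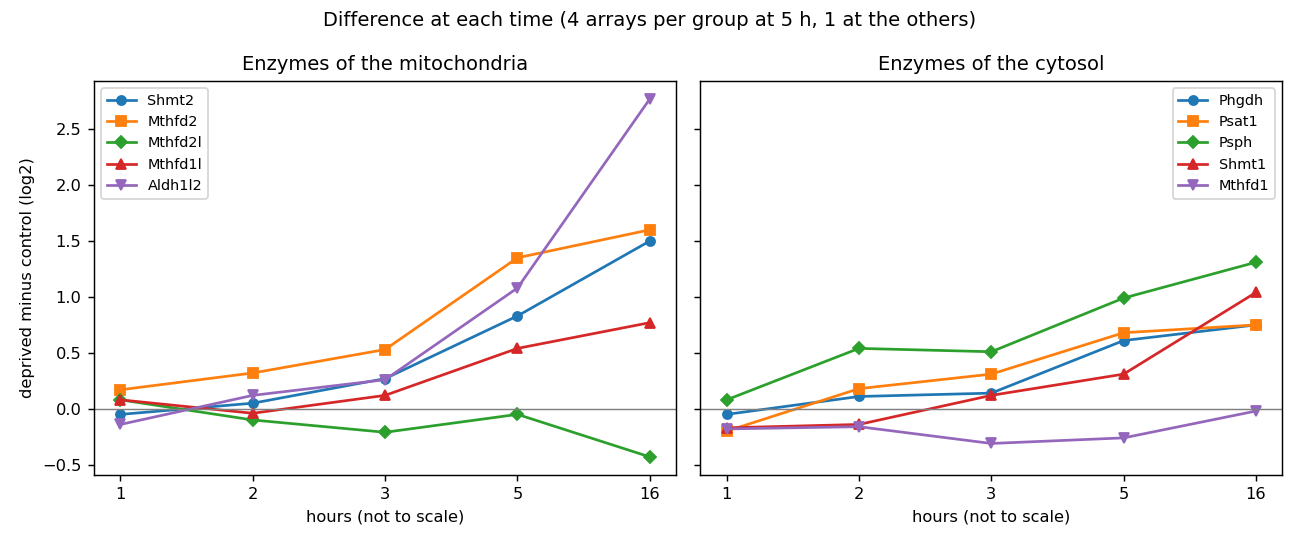
Deprived minus control (vertical axis, log2) at 1, 2, 3, 5 and 16 h for the 5 mitochondrial and the 5 cytosolic enzyme genes, from 4 arrays per group at 5 h and 1 at each other time. Aldh1l2 reached 2.77 at 16 h, whereas Mthfd2l and Mthfd1 stayed at or below 0.08.

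Whether the differences changed with time was tested in limma over all 16 arrays, as the slope of the difference per doubling of the hours. The slope was above 0 with an adjusted p under 0.05 for 7 of the 10 genes and below 0 for none, against 1.39 percent of all genes above and 1.07 percent below (2.47 percent in all). It was 0.74 (SE 0.10, adjusted p = 0.00695 in limma) for Aldh1l2, 0.44 (SE 0.10) for Mthfd2, 0.43 (SE 0.08) for Shmt2 and 0.32 (SE 0.06) for Psph. For Shmt1 it was 0.31 (SE 0.06), for Phgdh 0.24 (SE 0.06) and for Mthfd1l 0.22 (SE 0.05), and these 6 had adjusted p-values from 0.0132 to 0.0472 in limma. Psat1 (0.26, SE 0.08), Mthfd1 (0.03, SE 0.05) and Mthfd2l (-0.10, SE 0.08) did not pass. The count, though not the size of every slope, rests on the 16 h arrays. Without them none of the 10 passed in limma, where 0.135 percent of all genes were called higher. In that fit 8 of the 10 had an unadjusted p under 0.05, as had 1295 of 19938 genes. The slope was then larger for Mthfd2 (0.57) and Phgdh (0.31), among others, and smaller for Aldh1l2 (0.57) and Shmt1 (0.23). Without the 1, 2 or 3 h arrays the count was 3, 3 and 4. Of all 19938 genes 212, 132 and 173 were then called higher, against 278 with all arrays. Without the 5 h arrays the count was 7 (4.66 percent of all genes higher). With hours in place of their logarithm the count was 3, while 536 of all genes were called higher.

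The mean difference over the times with 1 array per group, which uses none of the 5 h arrays, was also fitted in limma, each time having its own level. None of the 10 genes passed, and 0 percent of all genes did. The SE of this fit measures how the difference varied between the times, not the spread of replicates. A difference that grew with time thus widened its own SE, as for Aldh1l2 (0.75, SE 0.48, and 0.08, SE 0.09, without 16 h). For such genes the fit cannot decide whether a difference was present. An unadjusted p under 0.05 was found for 2 of the 10, Psph (0.61, SE 0.19) and Mthfd2 (0.66, SE 0.23), and for 1244 of 19938 genes. Both means rest in part on the 16 h arrays: without them Psph differed by 0.38 (SE 0.10) and Mthfd2 by 0.34 (SE 0.08).

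Values moved over time in both media. Between the 1 h and the 16 h array, 9 of the 10 genes went down in control cells (Mthfd2l went up), while the median of all genes moved by 0.05. In deprived cells the 16 h array was above the 1 h array for all 10 genes, for Mthfd2l by 0.00 after rounding. Aldh1l2 changed by 1.25 in deprived and by -1.66 in control cells over that span, Shmt2 by 0.72 and -0.84, Mthfd2 by 0.73 and -0.70, and Psph by 0.50 and -0.73. For Phgdh the change was 0.19 in deprived and -0.61 in control cells. Mthfd2l changed by 0.00 in deprived and by 0.52 in control cells. These are single arrays, with no test. From 1 h to the 5 h mean, control values changed by -0.67 for Mthfd2, -0.58 for Aldh1l2 and -0.43 for Psat1. Mthfd1l (0.2) was the only enzyme gene to go up there. From 5 h to 16 h the deprived level went down for Phgdh (10.37 to 10.23), Psph (9.76 to 9.67) and Mthfd1l (10.42 to 10.2). It went up for the other enzyme genes. Control levels of Phgdh, Psph and Mthfd1l went from 9.75 to 9.48, 8.77 to 8.36 and 9.87 to 9.44. None of these changes was tested.

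**Figure D4:**
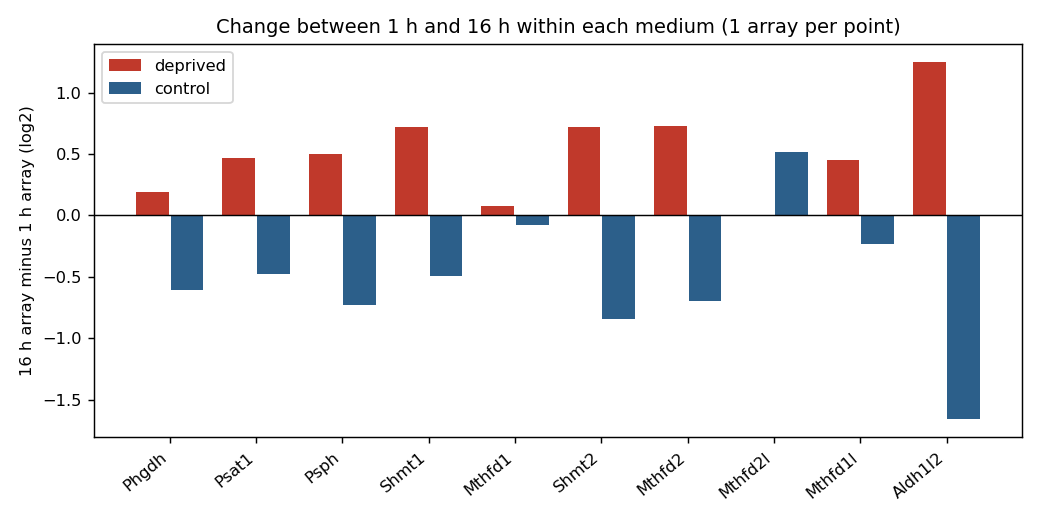
Value on the 16 h array minus that on the 1 h array (vertical axis, log2) in deprived and control cells, 1 array per time and medium. Aldh1l2 shows the widest gap, 1.25 in deprived against -1.66 in control cells, and Mthfd2l is the only gene above 0 in control cells.

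**Figure D5:**
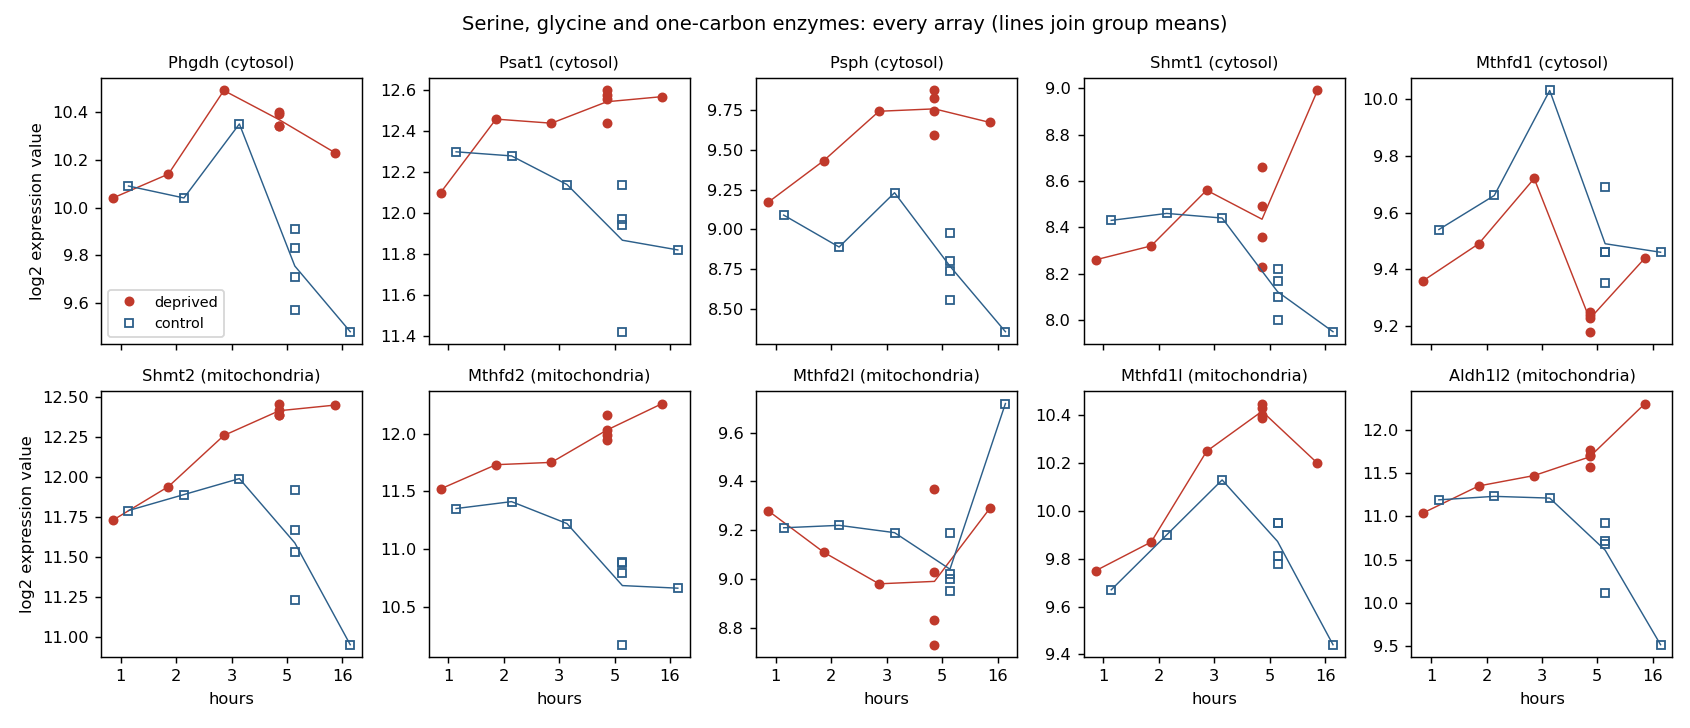
Log2 expression value of each gene on all 16 arrays by hours, deprived cells as filled circles and control cells as open squares, each gene on its own vertical axis and the times evenly spaced; lines join group means. At 5 h the groups do not overlap for 9 of the 10 genes, with deprived cells higher for 8 and lower for Mthfd1, and they overlap for Mthfd2l.

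Other genes of the pathway were counted from a list. Of 44 listed genes of the folate cycle, glycine cleavage, the methionine cycle and the carriers of serine, glycine and folate, 36 were measured. At 5 h 5 of them rose and 1 fell, against 2.41 percent of all genes called higher and 1.7 percent lower, and their median difference was -0.02. The replicate block gave 9 higher and 6 lower (8.22 and 10 percent of all genes), and leaving out both arrays numbered 4 gave 8 higher and 3 lower (6.34 and 7.17 percent of all genes). None of 10 folate cycle genes and none of 6 genes of glycine cleavage and serine or threonine breakdown passed in limma, where 3 and 2 had an unadjusted p under 0.05. With the block 1 folate cycle gene was called higher and 2 lower, and 1 glycine cleavage gene higher and 1 lower. Without both arrays numbered 4 the folate cycle again had 1 higher and 2 lower, and glycine cleavage 1 higher.

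Of the carriers 4 of 12 rose and 1 fell, and with the block 5 were higher and 2 lower. Slc6a9, a glycine transporter, had a log2 mean of 12.68 (SD 0.11) in deprived and 10.91 (SD 0.52) in control cells, a rise of 1.77 (SE 0.22, adjusted p = 0.00199 in limma). Slc1a4 and Slc1a5, carriers of serine and other neutral amino acids, rose by 1.19 (SE 0.07) and 1.08 (SE 0.17), and Slc38a2 by 0.65 (SE 0.07). Slc25a38, the mitochondrial glycine carrier, fell by 0.41 (SE 0.09, adjusted p = 0.0291 in limma).

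Among 8 genes of the methionine cycle, choline breakdown and transsulfuration 1 passed, Cth, which splits cystathionine to give cysteine, with a rise of 2.23 (SE 0.15, adjusted p = 0.000104 in limma). The block gave 2 higher and 1 lower there, and leaving out both arrays numbered 4 gave 2 higher.

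The regulators of the amino acid response were followed on the same arrays. Atf4 was at 10.40 in deprived and 10.08 in control cells at 1 h, and its difference was 0.32, 0.53, 0.67, 0.95 (SE 0.08 at 5 h) and 1.28 over the 5 times. Ddit3, which codes for CHOP, a partner of Atf4, differed by 0.34, 0.71, 1.27, 1.77 (SE 0.14) and 2.22 at the same times. At 1 h both differences were larger than that of any of the 10 enzyme genes, of which the highest was 0.17; this order was not tested.

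For each enzyme gene, the other gene whose values were most alike over the 16 arrays was found by Pearson's r, as a description of arrays that share treatment and time. It was Gars, glycyl-tRNA synthetase, for Psph (0.981), Slc7a1, a cationic amino acid carrier, for Mthfd2 (0.978), and Xpot, a tRNA exporter, for both Shmt2 (0.976) and Aldh1l2 (0.969). It was Ero1a for Psat1 (0.972), Hspa9, a mitochondrial chaperone, for Phgdh (0.953), Wdr12 for Shmt1 (0.944) and Ppp1r15b for Mthfd1l (0.928). For Mthfd2l it was Elk3 (0.917) and for Mthfd1 Smyd5 (0.906). Of these partners Gars, Slc7a1, Xpot, Ero1a, Hspa9 and Ppp1r15b had an adjusted p under 0.05 at 5 h, whereas Wdr12, Elk3 and Smyd5 did not.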

How the data were processed

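RNA of 16 samples was hybridized to Affymetrix whole-transcript arrays after Ambion WT amplification, per the labels' protocols. The authors deposited log2 values made with RMA (robust multi-array average); RMA and limma are named, with no version, in the submitters' processing notes, and the settings and the genome build are not given in the sources used here. The table has 35556 rows, no missing value and no identical columns, and was not normalized further. Of its rows, 21789 have 1 gene symbol in the platform annotation, 1621 have several and 12146 are unnamed. For the 999 genes found on more than 1 row, that of highest mean over the arrays was used, which left 19938 genes, all of them tested. Phgdh also has a row shared with another symbol, which was not used. Some genes of the lists were not analysed here.

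Differences, deprived minus control, were fitted by lmFit and eBayes of limma 3.58.1 under R 4.3.3 (two-sided, Benjamini-Hochberg over all genes, threshold 0.05), at 5 h, over the mean of the other times with time as a factor, and as a slope over log2 hours in all arrays. The pairs of genes were tested by exact permutation with scipy 1.17.1. The genes named were the 10 enzymes, Atf4, Ddit3, the pathway genes that passed, relatives of the enzymes and the most alike gene of each. The members, lists and tests were chosen with earlier results of these data known. Both groups carry numbers 1 to 4 at 5 h. Deviations from the group means correlated between same-numbered arrays with 0.354, 0.584, 0.467 and 0.896. All were over 0.1, so the number was used as a block in an alternative fit. Differently numbered arrays among 1 to 3 correlated as highly, from 0.133 to 0.68. Without number 4 the correlations of same-numbered arrays were 0.193, -0.00305 and -0.2. The pairing thus rests mainly on number 4. Alternatives were quantile normalization, median centring, array weights, the variance prior, the choice of rows, a filter on low values, the block and leaving out arrays. The fits were tested on simulated data with known changes and independent arrays. Of changes of 0.5 on the log2 scale, 45 percent were found at 5 h, 21.2 percent with the block and 15 percent for the mean of the other times. Of changes of 1, these fits found 95, 87.5 and 91.2 percent. The shares for the block do not describe its power where same-numbered arrays correlate, as the arrays numbered 4 did (0.896). Those for the mean of the other times do not describe differences that grew with time, which widened the SE of that fit. Changes as small as those of Shmt1 and Mthfd1 at 5 h were not simulated. The number of arrays limits the precision.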

Additional observations from a re-analysis of the deposited data

Results flagged for a closer look

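Among 38 groups of 4 arrays at 5 h, from 19 named genes, 2 held an array far from the other 3 by Dixon's criterion, which chance alone passes in about 1 in 20 groups. Both were control array 4: Mthfd2 was at 10.17 there, against 10.79 to 10.89 on the other controls, and the glycine transporter gene Slc6a9 at 10.13. Without both arrays numbered 4 Mthfd2 still differed by 1.13 (SE 0.07, adjusted p = 2.18e-06 in limma).

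The difference between deprived and control cells changed with time, by the test of the slope per doubling of the hours, for 7 genes: Aldh1l2 (0.74), Mthfd2 (0.44), Shmt2 (0.43), Psph (0.32), Shmt1 (0.31), Phgdh (0.24) and Mthfd1l (0.22). None passed without the 16 h arrays, where the slopes of the same 7 genes ran from 0.23 to 0.57.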

How the results depend on the processing

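Of 170 comparisons of a member's 5 h difference with an alternative setting, 158 kept direction and side of the threshold. The exceptions concern 4 genes. The rise of Psat1 ended with all rows tested (0.68, adjusted p = 0.0505 in limma) and with each of 5 arrays left out; without 1 array it ran from 0.53 to 0.77. Mthfd1 passed as lower with the replicate block (-0.26, adjusted p = 0.0207) and with array weights (-0.23, adjusted p = 0.005), and Shmt1 as higher with the block (0.31, adjusted p = 0.0287) and with weights (0.27, adjusted p = 0.00448). Mthfd2l turned to 0.04 without deprived array 2 and to 0.0 without deprived array 3, in a range of -0.18 to 0.04. The block changed no other member's call. Over left-out arrays 6 to 7 members and 5 to 7 pathway genes were called at 5 h. Pathway genes numbered 15 with the block, 16 with array weights and 11 without both arrays numbered 4, against 6. Over all genes the calls were 820, against 3632, 5485 and 2695 in these settings. Members with a changing difference over time numbered 7, against 3 with plain hours and 0 to 7 with 1 time left out. They numbered 5 with quantile normalization, 5 with the other variance prior and 8 without both arrays numbered 4. Phgdh and Mthfd1l lost their call with quantile normalization (adjusted p = 0.0859 and 0.0562 in limma). Psat1 passed without both arrays numbered 4 (0.24, adjusted p = 0.00308 in limma). Over the mean of the single times none passed in any setting. The 6 pair differences kept their direction in all 72 comparisons; with an array left out, without number 4 or with same-numbered pairs (replicate block) no p under 0.05 is possible, so those were compared as values. The causes of these shifts were not tested.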
